A study of Mus musculus with 40 samples.

Results

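Hepatic gene expression was compared between 5 mice gavaged with the dioxin TCDD at 0.3 μg/kg and 5 mice given sesame oil alone. The full name of TCDD is 2,3,7,8-tetrachlorodibenzo-p-dioxin. These 10 libraries were chosen by their dose labels from the 40 of the series, which holds 8 groups of 5. All mice were male C57BL/6 with ad libitum feed, were 30 days old at the start and 58 days old at the end by the labels, and were dosed every 4 days for 28 days (7 administrations). The study's methods give a slightly younger age at the first gavage. The labels give no transgene or deletion, and both groups shared the gavage, the oil, and dosing and tissue collection within the first hours of the light phase. Each library was made from 1 liver. SDs below measure the spread between the mice of a group. SEs and p-values by edgeR come from 1 fit of all 40 libraries, so they also reflect spread in the other dose groups.

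TCDD acts through AhR, the aryl hydrocarbon receptor, which is a transcription factor held in the cytoplasm by chaperones. After binding, the receptor moves to the nucleus, pairs with its partner ARNT and binds dioxin response elements in DNA. Its best-known targets in liver encode enzymes that oxidize and conjugate foreign compounds, led by the cytochromes P450 of family CYP1, and a repressor of the receptor itself.

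The shared core of a dioxin response element is GCGTG, or CACGC when read on the other strand. The 250 bases before the annotated start are shown for Cyp1a1, Cyp1b1, Ahrr and Htatip2, which are AhR target genes called higher below and hold the core there. They are from RefSeq on build GRCm38.p6, read 5′ to 3′ on the strand of the gene, with each core in capitals.
Cyp1a1: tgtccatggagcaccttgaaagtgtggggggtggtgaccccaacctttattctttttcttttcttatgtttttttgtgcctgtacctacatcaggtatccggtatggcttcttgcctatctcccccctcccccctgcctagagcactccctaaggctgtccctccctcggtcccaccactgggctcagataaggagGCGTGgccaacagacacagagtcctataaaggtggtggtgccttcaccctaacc
Cyp1b1: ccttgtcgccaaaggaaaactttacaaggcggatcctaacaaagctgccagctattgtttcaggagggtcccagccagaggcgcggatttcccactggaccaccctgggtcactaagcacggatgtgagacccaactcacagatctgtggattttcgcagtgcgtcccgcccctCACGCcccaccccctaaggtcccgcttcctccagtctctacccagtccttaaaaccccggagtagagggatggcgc
Ahrr: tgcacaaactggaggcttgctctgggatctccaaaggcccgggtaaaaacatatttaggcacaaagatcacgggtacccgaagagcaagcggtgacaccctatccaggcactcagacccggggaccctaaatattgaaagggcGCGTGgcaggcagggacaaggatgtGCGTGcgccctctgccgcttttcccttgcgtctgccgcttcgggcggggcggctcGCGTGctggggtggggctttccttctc
Htatip2: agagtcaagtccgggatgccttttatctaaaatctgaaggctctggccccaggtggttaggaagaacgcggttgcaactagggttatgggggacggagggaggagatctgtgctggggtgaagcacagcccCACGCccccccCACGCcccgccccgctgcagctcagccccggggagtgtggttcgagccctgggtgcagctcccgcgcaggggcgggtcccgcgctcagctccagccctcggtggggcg
The windows lie at chr9:57697363-57697612 (plus strand), chr17:79715062-79715311 (minus strand), chr13:74292332-74292581 (minus strand) and chr7:49758856-49759105 (plus strand). The core began 54 bases before the start of Cyp1a1 and 76 bases before that of Cyp1b1. Ahrr held 3 cores, beginning 107, 82 and 27 bases before its start, and Htatip2 held 2, beginning 119 and 108 bases before its start. In windows of 300 bases, which run on to 50 bases after the start, the core was present on either strand in 24 of 49 called-higher genes with a promoter sequence (49.0%) and in 5901 of 11101 tested genes with one (53.2%). The share among called genes was not above that among tested genes, and binding was not measured. Of the other called AhR target genes described below, Selenbp1 held 2 cores, beginning 181 and 177 bases before its start, and the windows of Cyp1a2 and Nqo1 held none.

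Total counts in genes ran from 15.5M to 21.0M per library, with medians of 16.7M in vehicle and 19.1M at 0.3 μg/kg. No pair of libraries within a group agreed to within counting noise (chi-square divided by its degrees of freedom, at least 11.5). As a check of the tissue label, all 10 hepatocyte markers had group means of at least 614.6 in counts-per-million units (CPM, with library sizes scaled by the TMM method). Vehicle replicate 2 stood apart in transcripts of skeletal muscle: 18 such genes, chosen after the values were seen, summed to 720 CPM in it and to 8.82 to 27.5 CPM in the other 9 libraries.

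A gene was called when edgeR gave a Benjamini-Hochberg adjusted p under 0.05 and the fitted fold change was at least 1.5. At 0.3 μg/kg, 62 of 15373 tested genes were called higher (0.403%) and 10 were called lower (0.065%), which together made 72 (0.468%). An unadjusted p under 0.05 was found for 1127 genes (7.33%). A small set of genes rose, most of them modestly. Of the 62 higher genes, 8 had a fitted fold of at least 8, 20 of at least 4 and 45 of at least 2. Levels of the 5 treated mice lay wholly above those of the 5 vehicle mice for 54 of the higher genes and wholly below for 7 of the lower genes, against 1.5% and 0.969% of all tested genes (2.47% in either direction). A further 8 genes had an adjusted p under 0.05 but a smaller fold, among them Xdh (0.58 on the log2 scale, adjusted p 0.00376 by edgeR) and Slc35d1 (0.53, adjusted p 0.00249). Without vehicle replicate 2, 52 genes were called higher and 1 lower, the latter Serpina7.

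**Figure D1:**
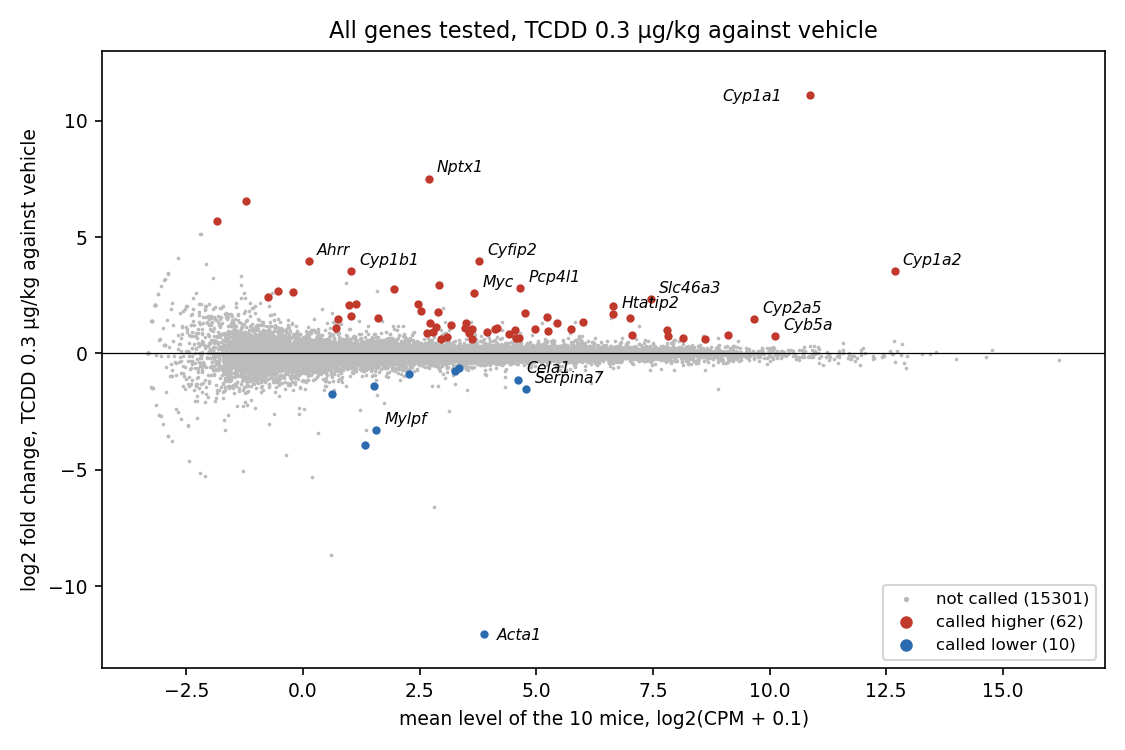
Fitted log2 fold change (vertical axis) against the mean level of the 10 mice on a log2(CPM + 0.1) scale (horizontal axis) for the 15373 tested genes. Grey points were not called, 62 red points were called higher and 10 blue points lower, with Cyp1a1 at the top and Acta1, a muscle gene, at the bottom.

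The titles number the libraries in 2 ranges, up to 27 and from 28, which were compared although the labels do not say that they are batches. Range 1 held 3 vehicle and 2 treated mice, and range 2 held 2 and 3. All 62 higher genes had a higher mean log2 CPM at 0.3 μg/kg in each range, and 8 of the 10 lower genes had a lower one. The same libraries chose these genes, so that agreement was likely beforehand and is no separate check. Fitted alone, range 1 gave 20 calls and range 2 gave 22, with fewer mice in each.

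All 3 genes of the CYP1 family rose, and Cyp1a1 had the largest fitted fold of the 62. Cyp1a1 (ENSMUSG00000032315), which oxidizes polycyclic aromatic compounds, stood at 1.74, 1.62, 2.33, 0.979 and 1.65 CPM in the vehicle mice. At 0.3 μg/kg it stood at 3915, 3251, 3867, 4424 and 3216 CPM. No mouse of either group came near the other group, and the log2 fold change was 11.12 (SE 0.26, adjusted p 2.50e-29 by edgeR). Cyp1a2 (ENSMUSG00000032310), a P450 that is expressed in unexposed liver and also binds TCDD, had levels of 899, 901, 1089, 1027 and 1232 CPM in vehicle. Treated mice had 11527, 10523, 12155, 13362 and 12777 CPM. This is a shift of 3.55 on the log2 scale (SE 0.15, adjusted p 1.15e-20 by edgeR), with no overlap between groups. Cyp1a1 and Cyp1a2 are close paralogs, and reads mapping to both were not counted. Cyp1b1, the third member, which is scarce in normal liver, lay between 0.0716 and 0.684 CPM in vehicle and between 2.59 and 4.51 CPM at 0.3 μg/kg. It rose by 3.54 on the log2 scale (SE 0.37, adjusted p 1.53e-08 by edgeR).

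Among the receptor's own components described here, only the repressor was called. Ahrr (ENSMUSG00000021575) encodes the AhR repressor, which competes with AhR for ARNT. Vehicle libraries held 0 to 3 counts of it, and levels were 1.45, 0.824, 3.09, 1.92 and 2.02 CPM in the treated mice, on average at least 9.75-fold above the level of 3 counts (adjusted p 4.27e-05 by edgeR). Ahr itself, the partner Arnt, the chaperones Hsp90aa1 and Hsp90ab1 and the co-chaperone Ptges3 were not called, with log2 fold changes of 0.28, 0.06, -0.14, 0.26 and 0.01. The signs for Arnt, Hsp90aa1 and Ptges3 turned in at least 1 alternative fit. Arnt2 had at most 1 count in any of the 10 libraries and was not tested.

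In the list of 20 AhR target genes, 18 were tested, 7 were called higher and none lower by edgeR. The median log2 fold change was 0.79 against -0.02 over all tested genes. Members of this list, as of all lists here, were chosen with earlier results of these data known. These values therefore describe the list and are no separate test. The other called members were Htatip2, Nqo1 and Selenbp1. Htatip2, a protein of the short-chain dehydrogenase family, rose from 43.9, 48.1, 53.3, 50.3 and 42.5 CPM to 166, 158, 138, 156 and 145 CPM. Its log2 fold change of 1.68 had an SE of 0.10 (adjusted p 2.01e-15 by edgeR), and the groups did not overlap. Nqo1, a quinone reductase that AhR and NRF2 both regulate, rose from 6.44 ± 0.874 to 16.0 ± 2.11 CPM (SD, n = 5 each), or by 1.31 (SE 0.22, adjusted p 0.000468 by edgeR). Selenbp1, a methanethiol oxidase, rose from 402 ± 63.9 to 698 ± 74.6 CPM (SD, n = 5 each), or by 0.80 (SE 0.15, adjusted p 0.00284 by edgeR).

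Other members of that list did not pass. Xdh, which encodes xanthine dehydrogenase, lay between 179.6 and 210.3 CPM in vehicle and between 260.3 and 344 CPM at 0.3 μg/kg without overlap, just under the fold threshold, and DESeq2 called it. Lpin1, a phosphatidate phosphatase, was high in treated replicates 2 and 5 alone, at 337 and 256 CPM against 32.0 to 45.8 CPM in the others and 22.1 to 69.1 CPM in vehicle. Tiparp (-0.13), Cyp2s1 (-0.38), Ugt1a6a (0.08), Ugt1a6b (-0.16), Gsta1 (0.79), Gsta2 (0.16), Fmo2 (0.12) and Nfe2l2 (0.52) were not called. Levels in vehicle and treated mice overlapped for each of these genes. Over the whole list, 12 of the 18 tested genes had an unadjusted p under 0.05 by edgeR, against 7.33% of all tested genes. The signs for Tiparp, Cyp2s1, Ugt1a6a, Gsta2 and Fmo2 turned in at least 1 alternative fit. Aldh3a1 and Serpinb2 had at most 1 count in any of the 10 libraries and were not tested.

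Genes of conjugation, the step that couples a sugar acid or glutathione to a compound, rose in small numbers. In the UDP-glucuronosyltransferase list 3 of 17 tested genes were called higher. Ugt1a9 was at 40.0, 53.4, 35.4, 35.3 and 32.3 CPM in vehicle and at 182, 132, 187, 168 and 137 CPM after TCDD, a log2 fold change of 2.03 (SE 0.18, adjusted p 1.85e-10 by edgeR). Its last exons are shared by the other Ugt1a genes, so only reads in its own part can be assigned and the value is uncertain. Ugt2b35 rose by 0.65 (SE 0.12, adjusted p 0.00114 by edgeR). Ugdh, which makes the UDP-glucuronate that these enzymes use, rose from 170.1 ± 11.8 to 283 ± 28.1 CPM (SD, n = 5 each), or by 0.73 (SE 0.12, adjusted p 0.000299 by edgeR).

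Of 20 glutathione S-transferases tested, 2 were called. Gstm3 rose from 148 ± 12.4 to 297 ± 29.2 CPM (SD, n = 5 each), with every treated mouse above every vehicle mouse, yet its call (1.00, SE 0.24, adjusted p 0.0408 by edgeR) was lost when any 1 of the 10 libraries was left out (adjusted p 0.0621 to 0.118), and also with the title range as a covariate (0.94, adjusted p 0.0559) and by limma on the deposited log2 table (adjusted p 0.0576). With all libraries of both groups kept or split by title range, 8 of 13 other settings kept the call of Gstm3, DESeq2 and a fit of these 2 groups alone among them. Gstp2 ranged from 1.29 to 3.17 CPM in vehicle and was at 8.45, 3.41, 4.35, 8.36 and 19.4 CPM in treated mice, and its call (2.11, SE 0.45, adjusted p 0.0103 by edgeR) was lost without treated replicate 5 (adjusted p 0.12) or vehicle replicate 2 (0.0522). Its near-identical neighbour Gstp1 differed by 0.30 (SE 0.25, adjusted p 0.906 by edgeR), and reads shared by them leave both uncertain. In the NRF2 list, Nqo1, Gstm3 and Abcc4 were called of 15 tested, while the NRF2 gene Nfe2l2, the glutamate-cysteine ligase genes Gclc (-0.03) and Gclm (-0.02) and the heme oxygenase Hmox1 (0.22) were not. Of the 15, 6 had an unadjusted p under 0.05 by edgeR, against 7.33% of all tested genes, and 11 had positive log2 fold changes and 3 negative. Among the uncalled, Srxn1 lay between 43.9 and 56.8 CPM in vehicle and between 65.9 and 72.1 CPM at 0.3 μg/kg. Gsr lay between 86.9 and 97.6 CPM and between 103.9 and 120.4 CPM in the same groups. Abcc4, an efflux pump for conjugates and bile acids, rose from 2.50 ± 0.772 to 8.88 ± 3.28 CPM (SD, n = 5 each), or by 1.83 (SE 0.36, adjusted p 0.00486 by edgeR), and was the single gene that edgeR called of 24 tested for bile acid synthesis and transport. Abcc3, another efflux pump of that list, lay between 277 and 469 CPM in vehicle and between 534 and 609 CPM at 0.3 μg/kg, without overlap (0.65, SE 0.17, adjusted p 0.0948 by edgeR), and DESeq2 called it.

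Of 37 other cytochromes P450 tested, Cyp2a5 alone was called. This coumarin hydroxylase was at 347, 448, 446, 395 and 524 CPM in vehicle and at 1344, 1104, 1309, 1208 and 1014 CPM at 0.3 μg/kg, a log2 fold change of 1.47 (SE 0.23, adjusted p 0.000219 by edgeR). Its paralog Cyp2a4 differed by -0.24 (SE 0.81), and reads that map to both were not counted. Cyb5a, the electron carrier cytochrome b5, showed one of the tightest shifts, from 773 to 885 CPM in vehicle to between 1332 and 1448 CPM after TCDD (0.76, SE 0.09, adjusted p 1.29e-06 by edgeR). Further enzymes of foreign-compound metabolism outside the lists were Ces2c, a carboxylesterase that rose from 66.5 ± 19.8 to 189.7 ± 21.1 CPM (SD, n = 5 each; 1.51, SE 0.19), and the sulfotransferase Sult5a1 (1.56, SE 0.30). Ces2c belongs to a cluster of similar genes.

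The rises with the largest folds outside the AhR list were in genes better known from tissues other than liver. Nptx1 (ENSMUSG00000025582) encodes neuronal pentraxin, a secreted synaptic protein. Vehicle mice had 0.0995, 0, 0, 0 and 0.215 CPM, which is 0 to 3 counts, and treated mice had 10.4, 9.01, 15.4, 18.2 and 10.4 CPM. All treated mice were far above all vehicle mice, on average at least 66.4-fold above the level of 3 counts (adjusted p 7.95e-09 by edgeR). Cyfip2, a part of the WAVE complex that controls actin, moved from 1.69, 1.68, 1.94, 1.12 and 1.72 CPM to 24.0, 21.8, 28.6, 20.7 and 33.3 CPM (3.97, SE 0.28, adjusted p 5.04e-13 by edgeR). Tuba8, an α-tubulin, moved from 1.71 ± 0.697 to 13.2 ± 4.11 CPM (SD, n = 5 each; 2.94, SE 0.34). Pcp4l1, a small protein related to a calmodulin-binding Purkinje cell protein, moved from 4.48 to 7.51 CPM in vehicle to a narrow range of 41.2 to 47.4 CPM (2.82, SE 0.18, adjusted p 8.45e-15 by edgeR).

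Transporters and lipid carriers were also among the 15 top-ranked rises. Slc46a3, a lysosomal membrane transporter, was at 57.4, 62.9, 55.5, 59.1 and 57.2 CPM in vehicle and at 289, 277, 295, 304 and 296 CPM after TCDD. Mice within each group were nearly alike, and the log2 fold change was 2.32 (SE 0.18, adjusted p 5.91e-12 by edgeR). Osbpl3, an oxysterol-binding-protein relative that carries lipids between membranes, lay between 0.210 and 1.43 CPM in vehicle but spread from 1.99 to 12.5 CPM in treated mice (2.77, SE 0.47, adjusted p 0.000468 by edgeR). Tnfaip8l3, a phosphoinositide carrier, overlapped between groups, since treated replicate 2 at 1.30 CPM lay under vehicle replicate 2 at 1.62 CPM (2.08, SE 0.42).

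**Figure D2:**
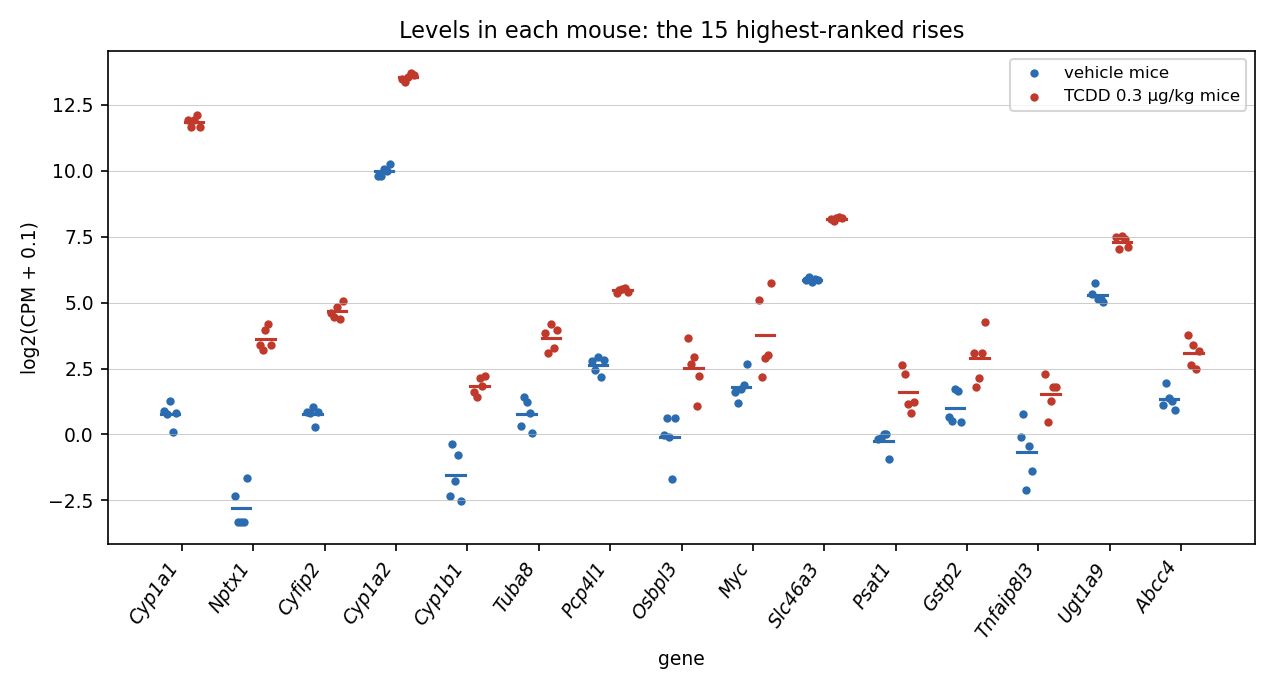
Level of each mouse on a log2(CPM + 0.1) scale (vertical axis) for the 15 top-ranked rises (horizontal axis), with vehicle mice in blue, 0.3 μg/kg mice in red and lines at the mean of the plotted values. The groups overlap for Myc and Tnfaip8l3, and the treated mice of Myc split into replicates 1 and 5 at 34.3 and 53.9 CPM and the other 3 at 4.47 to 7.89 CPM.

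Myc, a transcription factor of cell growth and the single called gene of 17 immediate early genes, was not raised alike in the group. Vehicle mice had 2.94, 2.18, 3.24, 3.57 and 6.30 CPM and treated mice had 34.3, 4.47, 7.29, 7.89 and 53.9 CPM. The call (2.58, SE 0.56, adjusted p 0.0152 by edgeR) was lost without treated replicate 1 (adjusted p 0.0605) or treated replicate 5 (0.163), and also without vehicle replicate 1 (0.0575) or vehicle replicate 2 (0.0655). The part of those mice in the call was not otherwise tested. Limma on the deposited log2 table and an edgeR fit of vehicle and 0.3 μg/kg alone did not call Myc either. Psat1, an aminotransferase of serine synthesis, was at 6.17 and 4.83 CPM in treated replicates 1 and 2 and at 1.66 to 2.23 CPM in the other 3, all above the vehicle range of 0.430 to 0.909 CPM. Its call (2.13, SE 0.44, adjusted p 0.00828 by edgeR) was lost without treated replicate 1 (adjusted p 0.0637) and by limma on the deposited log2 table. Psat1 was the single call among 19 genes of the unfolded protein and integrated stress responses, whose median log2 fold change was -0.17. Of these 19, 13 had negative and 6 positive log2 fold changes. An unadjusted p under 0.05 by edgeR was found for 7 of them, against 7.33% of all tested genes.

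Genes of lipid uptake and storage were among the smaller rises. Cd36, a fatty acid translocase, was at 37.3, 61.5, 25.0, 20.7 and 37.6 CPM in vehicle and at 96.8, 91.9, 119.7, 97.0 and 55.6 CPM at 0.3 μg/kg. Treated replicate 5 lay below vehicle replicate 2, and the log2 fold change was 1.34 (SE 0.25, adjusted p 0.00247 by edgeR). Lpl, lipoprotein lipase, rose from 34.9 ± 8.54 to 72.1 ± 14.0 CPM (SD, n = 5 each; 1.05, SE 0.25, adjusted p 0.0289 by edgeR), a call lost in 8 of 10 fits that left out a library (adjusted p 0.0521 to 0.121), all but those without vehicle replicate 4 or treated replicate 4. Cd36 and Lpl were the 2 calls among 23 tested genes of lipid uptake and droplets, of which 7 had an unadjusted p under 0.05 by edgeR. Pparg, a nuclear receptor of fat storage, rose from 7.96 ± 0.986 to 16.4 ± 3.21 CPM (SD, n = 5 each; 1.05, SE 0.19, adjusted p 0.00153 by edgeR). Of 21 tested genes of fatty acid synthesis and desaturation 0 were called by edgeR, DESeq2 or limma, and 2 had an unadjusted p under 0.05.

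Ucp2, a mitochondrial carrier, was the single call among 30 genes of fatty acid oxidation and ketogenesis, and treated replicates 1 and 2 were highest, at 95.9 and 73.0 CPM against 46.0 to 49.2 CPM in the others and 21.7 to 31.6 CPM in vehicle (1.31, SE 0.19, adjusted p 3.74e-05 by edgeR). Pkm, the pyruvate kinase of muscle and many non-hepatic cells, was the single call among 26 genes of glucose metabolism. It was at 29.7, 22.4, 30.0, 28.9 and 25.9 CPM in treated mice and at 11.8 to 13.1 CPM in 4 vehicle mice, while vehicle replicate 2, the library with muscle transcripts, held 25.3 CPM. The log2 fold change was 0.86 (SE 0.20, adjusted p 0.0291 by edgeR) and became 1.12 (adjusted p 0.00073) without that library. It was lost without any 1 of the other libraries except treated replicate 2 (adjusted p 0.052 to 0.129).

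Of the 62 higher genes, 42 belonged to none of the lists. Besides those above they included the membrane receptors Notch1 (1.06), Tnfrsf19 (1.14) and Lrp4 (0.67), the guidance protein Sema5b (1.52), the immune ligand Vtcn1 (1.59), the hormone-like peptide Insl6 (2.44), the secreted isthmin Ism2 (2.67) and Hrk, a BH3 protein of apoptosis (2.65), with log2 fold changes in parentheses. Genes of sugar nucleotides and glycoproteins were Pmm1, a phosphomannomutase (1.76, SE 0.23, adjusted p 3.62e-06 by edgeR), and Entpd5, a nucleotidase of the endoplasmic reticulum (0.63). Notch1 rose from between 18.3 and 22.0 CPM to between 29.7 and 52.7 CPM. The calls of Notch1, Vtcn1 and Hrk were kept in 4 of the 10 fits that left out a library. Igkv6-32, an immunoglobulin light chain segment, and Fndc9 had no count in any vehicle library. Igkv6-32 had 0.235 to 0.862 CPM in treated mice, at least 3.46-fold above the level of 3 counts, and Fndc9, of which treated replicates 2 and 5 had only 0.0589 and 0.0531 CPM, at least 1.88-fold. The call of Fndc9 was lost without treated replicate 1 (adjusted p 0.0521 by edgeR). Segments of this kind resemble one another, and the B and plasma cell list summed to 14.3 to 24.1 CPM in vehicle and 16.5 to 29.0 CPM at 0.3 μg/kg, with 0 of 7 tested genes called and 0 at an unadjusted p under 0.05 (edgeR).

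Reads were counted without regard to strand. By the GENCODE M21 annotation, exons of Tuba8, Ucp2, Tomm40l, Notch1, Fbxw9, Tmem86b, Msto1, Focad and Gm35986 overlap a gene on the opposite strand, and those of Snhg11, D630045J12Rik, Pkm and Ugdh one on their own strand, so these values may hold reads of a neighbour or lack reads shared with one. Tomm40l (1.10) overlaps Nr1i3, the xenobiotic receptor CAR.

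**Figure D3:**
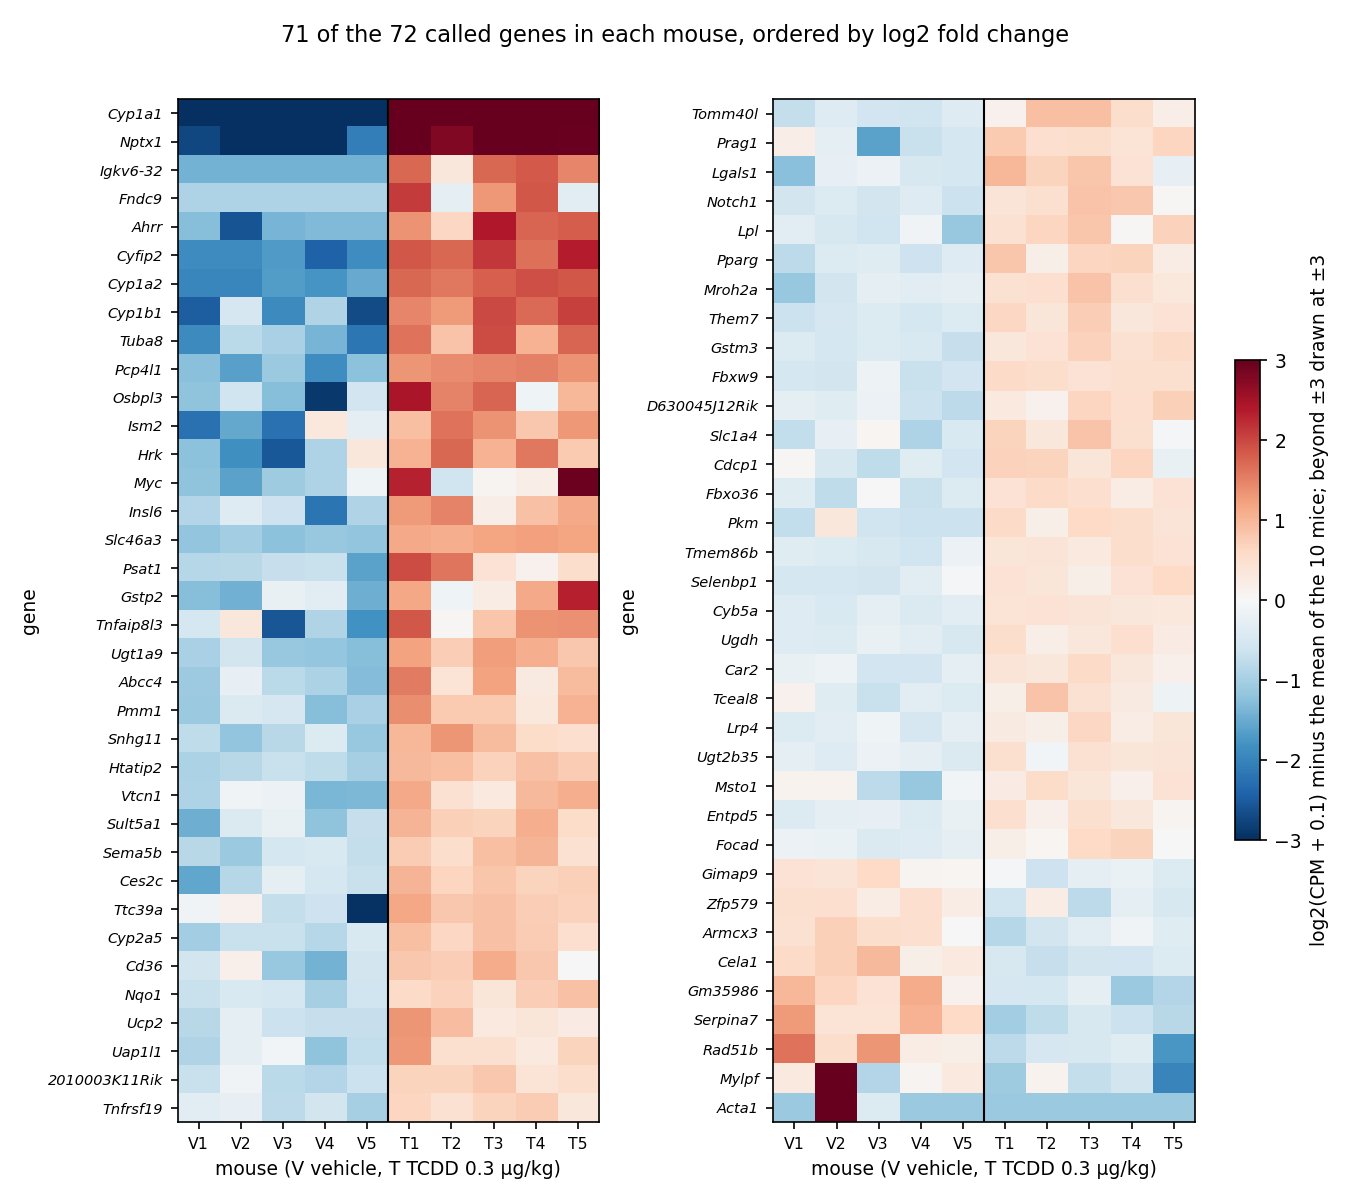
Level of 71 of the 72 called genes (rows, ordered by log2 fold change) in each of the 10 mice (columns, V vehicle and T 0.3 μg/kg), as log2(CPM + 0.1) minus the mean of the 10 mice, with colours ending at ±3. Most higher genes are pale blue in every vehicle mouse and red in every treated mouse, and Mylpf and Acta1 are dark red in vehicle replicate 2 alone.

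Of the 10 genes called lower, 7 had separated groups, while Acta1 and Mylpf rested on 1 mouse. Acta1 and Mylpf, which encode skeletal actin and a myosin light chain, had 146 and 22.2 CPM in vehicle replicate 2 and at most 1.15 CPM in any other vehicle mouse. In treated mice Acta1 had no count and Mylpf had 0.159 to 1.00 CPM. Without vehicle replicate 2 edgeR gave log2 fold changes of -1.70 for Acta1 (adjusted p 0.937) and -0.80 for Mylpf (adjusted p 0.725), and neither was called.

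Serpina7 and Cela1, both secreted proteins, were among the other falls. Serpina7, thyroxine-binding globulin, was at 57.5, 31.3, 31.5, 48.8 and 35.5 CPM in vehicle and at 11.4, 13.8, 16.9, 14.9 and 13.2 CPM at 0.3 μg/kg. Every treated mouse lay below every vehicle mouse, and the log2 fold change was -1.54 (SE 0.34, adjusted p 0.0173 by edgeR). The call was lost without vehicle replicate 1 or 4 or treated replicate 1 or 5 (adjusted p 0.0574 to 0.0765). Cela1, a serine elastase, was at 33.4, 36.5, 43.9, 25.0 and 27.1 CPM and at 15.8, 13.7, 15.2, 15.0 and 16.6 CPM, a difference of -1.12 (SE 0.25, adjusted p 0.0163 by edgeR), lost without vehicle replicate 2 or 3 or treated replicate 2 (adjusted p 0.0522 to 0.0762). Cela1 is also on the list of pancreatic acinar markers, of which 3 of 10 were tested. The list summed to 25.1 to 46.0 CPM in vehicle and 14.1 to 17.4 CPM in treated mice. Most of this was Cela1 itself, at 25.0 to 43.9 CPM and 13.7 to 16.6 CPM. The defining marker Ctrb1 had at most 7 counts in vehicle and 0 after TCDD. DESeq2 called Ctrb1 lower, and edgeR did not (adjusted p 0.919). Rad51b (-1.75), a recombination protein, Gm35986 (-1.39), a transcript antisense to the elongase Elovl6, Armcx3 (-0.90), a mitochondrial protein, Zfp579 (-0.75), a zinc finger protein, and Gimap9 (-0.64), an immune GTPase, also separated the groups. The call of Armcx3 was kept in 7 of the 10 fits that left out a library, that of Gimap9 in 5, of Zfp579 in 4, of Gm35986 in 3 and of Rad51b in 2.

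**Figure D4:**
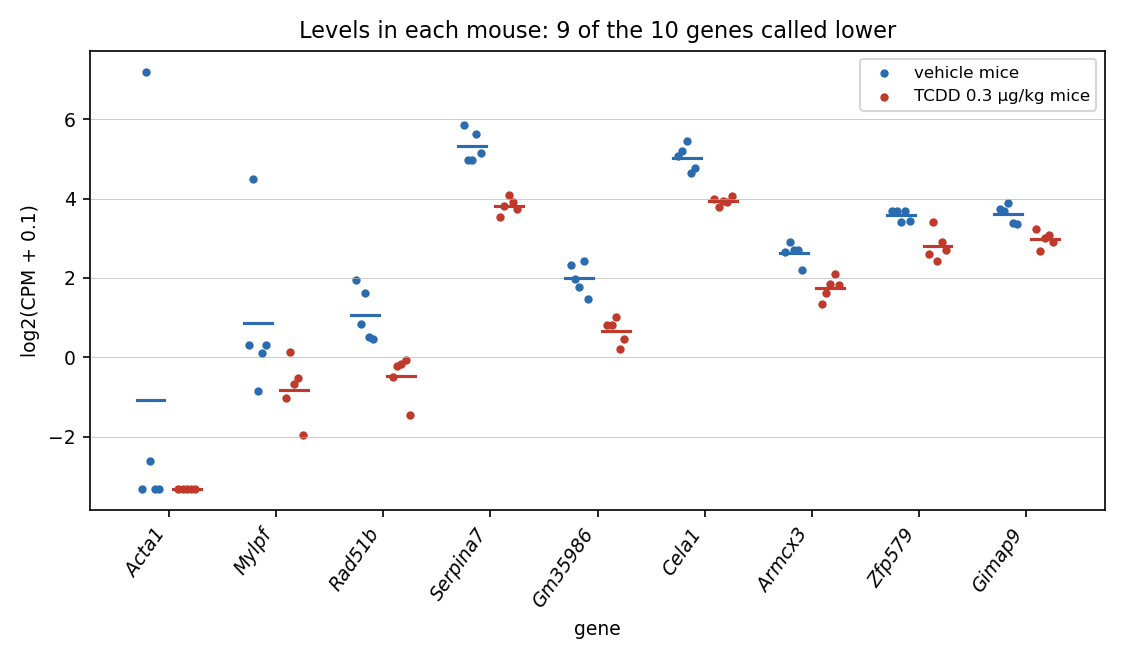
Level of each mouse on a log2(CPM + 0.1) scale (vertical axis) for 9 of the 10 genes called lower (horizontal axis), with vehicle mice in blue, 0.3 μg/kg mice in red and lines at the mean of the plotted values. The 2 muscle genes at the left are high in 1 vehicle mouse, and the other 7 show no overlap.

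Many pathways of liver gave 0 calls by edgeR, DESeq2 or limma. Over all tested genes edgeR called 0.468%, and 7.33% had an unadjusted p under 0.05. At that share most lists of this size would hold no call, so a count of 0 does not set these lists apart. This held for male-biased genes (17 tested, 0 at an unadjusted p under 0.05 by edgeR), female-biased genes (13 and 2), clock genes (20 and 2), cholesterol synthesis (24 and 0), iron and heme genes (21 and 1), the growth hormone axis (15 and 0), acute phase and complement (30 and 0), interferon-stimulated genes (30 and 0), p53 targets (15 and 0) and the cell cycle (25 and 3). Median log2 fold changes of these lists lay between -0.08 and 0.19. The lists taken from the study had 0 calls by these tools too: propionyl-CoA metabolism had 0 calls among 9 genes and a median of 0.06, cobalamin handling had 0 among 11 and a median of 0.02, and itaconate metabolism had 0 among 3 and a median of 0.19, with 0 genes at an unadjusted p under 0.05 in each. For the 2 subunits of propionyl-CoA carboxylase, Pcca and Pccb, the log2 fold changes were 0.02 and -0.002.

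Cell type markers were summed to look for shifts in the make-up of the tissue, although in whole liver fewer cells of a type and less RNA per cell cannot be told apart. The hepatocyte list summed to 114546 to 139534 CPM in vehicle and 99579 to 114846 CPM at 0.3 μg/kg. Its log2 fold changes were positive for 3 genes and negative for 7, with 1 gene at an unadjusted p under 0.05 by edgeR. The Kupffer cell list summed to 191 to 265 CPM in vehicle and 189 to 339 CPM at 0.3 μg/kg. Recruited macrophage and dendritic cell markers spread wider in treated mice, from 97.8 to 282 CPM against 115 to 159 CPM, with 5 of 14 genes at an unadjusted p under 0.05 and 0 called by edgeR, DESeq2 or limma. Of these 14, 8 had positive and 6 negative log2 fold changes. Cd74, which chaperones class II molecules, was at 73.3, 67.3, 31.4, 95.0 and 48.0 CPM in treated mice and at 27.9 to 51.2 CPM in vehicle. All 7 tested cholangiocyte markers had negative log2 fold changes with a median of -0.70, but 0 were called by edgeR, DESeq2 or limma and 1, Sox9, had an unadjusted p under 0.05. The cholangiocyte list summed to 64.0 to 77.3 CPM in vehicle and 53.0 to 62.2 CPM at 0.3 μg/kg. The shares over all tested genes were 0.468% called and 7.33% at an unadjusted p under 0.05 by edgeR. The part of these cells in the calls was not tested.

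The neighbouring doses show how far 0.3 μg/kg stood along the response. Set against 0.1 μg/kg in the same fit, 7 genes were called (0.0455%), all higher at 0.3 μg/kg, and 3.13% of genes had an unadjusted p under 0.05. They were Nptx1 (2.91), Cyfip2 (2.73), Cyp1b1 (1.91), Cyp1a1 (1.5) and Cyp1a2 (0.84), with log2 fold changes in parentheses, and Ahrr and Cdk15, which had means of only 0.0795 and 0.0111 CPM at 0.1 μg/kg. Cdk15, a cyclin-dependent kinase, had a mean of 0.296 CPM at 0.3 μg/kg and was not called against vehicle. When 1 μg/kg was set against 0.3 μg/kg, 37 genes were called (0.241%), 35 higher (0.228%) and 2 lower (0.013%), and 6.58% had an unadjusted p under 0.05. Both steps use the 0.3 μg/kg libraries that chose the 72 genes, so their values stand side by side only.

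Several genes were also called higher at 1 μg/kg than at 0.3 μg/kg. Cyp1b1 rose by a further 4.82 (SE 0.26), Ahrr by 3.21 (SE 0.31), Nptx1 by 2.50 (SE 0.40), Insl6 by 2.12 (SE 0.28), Ism2 by 1.78 (SE 0.32), Cyfip2 by 1.72 (SE 0.23) and Pmm1 by 0.94 (SE 0.21), on the log2 scale. Cyp1a1 and Cyp1a2 differed by 0.68 (SE 0.17) and 0.50 (SE 0.13) over the same step and were not called (adjusted p 0.0682 for Cyp1a1 and 0.136 for Cyp1a2 by edgeR). Group means of Cyp1a1 were 144, 1325, 3734 and 5976 CPM at 0.03, 0.1, 0.3 and 1 μg/kg, and 5767 CPM at 30 μg/kg. Cyp1b1 instead stood at 3.57 CPM at 0.3 μg/kg, 102 CPM at 1 μg/kg and 1635 CPM at 30 μg/kg. Slc46a3 and Ces2c had group means at 30 μg/kg, 138 and 88.3 CPM, below their 292 and 189.7 CPM at 0.3 μg/kg, and a contrast of these doses was not made. Group means of Serpina7 were 14.1 CPM at 0.3 μg/kg, 6.56 CPM at 1 μg/kg and 1.87 CPM at 30 μg/kg, and its step from 0.3 to 1 μg/kg was not called (-1.10, SE 0.35, adjusted p 0.281 by edgeR).

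**Figure D5:**
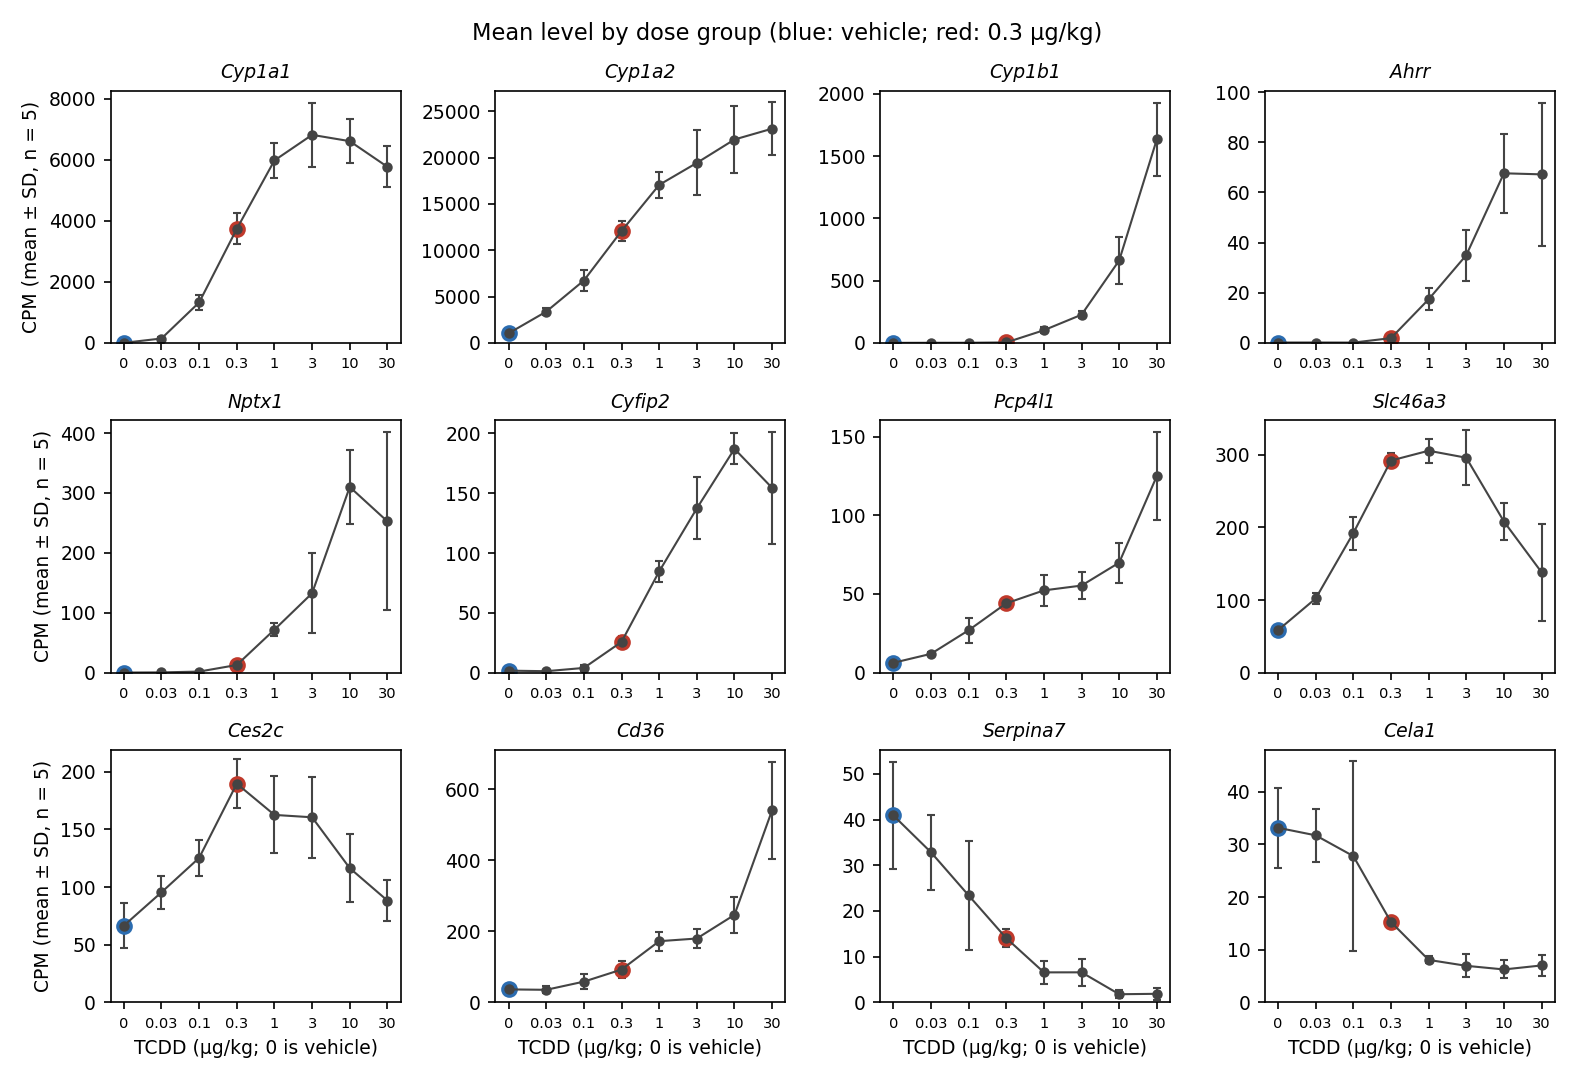
Mean level in CPM (vertical axes, error bars SD, n = 5) against dose in μg/kg (horizontal axes, equal steps, 0 is vehicle) for 12 called genes, with vehicle in blue and 0.3 μg/kg in red. At 0.3 μg/kg Cyp1a1 and Slc46a3 stand at 3734 and 292 CPM, while Cyp1b1 and Ahrr stand at 3.57 and 1.86 CPM, far below their levels at higher doses.

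Other genes called from 0.3 to 1 μg/kg were not called at 0.3 μg/kg against vehicle. The acute phase genes Saa1 and Saa2 rose by 4.07 (SE 0.92) and 5.17 (SE 1.12) with wide spread at 1 μg/kg (432 ± 857 and 322 ± 669 CPM, SD, n = 5), and at 0.3 μg/kg they still stood at 19.3 to 36.9 CPM and 5.46 to 14.9 CPM, within or near the vehicle ranges of 20.4 to 50.9 CPM and 4.68 to 9.60 CPM. Genes of antigen presentation and immune cells called in this step included H2-Eb1 (1.34), Ciita (1.47), the regulator of class II genes, Cd274 (1.55) and Gbp5 (1.62), with log2 fold changes in parentheses. The 2 genes called lower were Hcn3, an ion channel (-1.60), and Arsg, a sulfatase (-0.61).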

How the data were processed

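Liver RNA of 40 mice was sequenced as paired-end reads. Per the labels, the submitters' processing notes name FastQC 0.11.7, Trimmomatic 0.39 and STAR 2.7.3a and the builds GRCm39 and mm10 without saying which was used for what, so no coordinates of the files are given. For every library the authors deposited whole-number gene counts, not normalized, with an unstranded column, which was used, and 1 for each strand. The first strand held 50.0% to 50.3% of the strand counts, so the libraries keep no strand. Rows for unmapped, multiply mapped, unassigned and ambiguous reads were left out. Reads in genes made up 75.8% to 79.7% of reads in the same 10 libraries. The authors also deposited a table of normalized log2 values, used in 1 alternative. Symbols came from GENCODE M21 for 52083 of 55359 identifiers.

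Counts were fitted in R 4.3.3 with edgeR 4.0.16 (quasi-likelihood, 1 mean per dose over all 40 libraries, no covariate, TMM scaling, filterByExpr with a minimum count of 10), which tested 15373 genes. Adjusted p-values are Benjamini-Hochberg over all of them. A call needed an adjusted p under 0.05 and a fold of at least 1.5, the fold the study also used, beside a posterior probability that is not installed here. SDs are over the mice of a group, and SEs come from the fitted model. Where every library of a group had at most 3 counts, the fold is a bound against that level (0.191 CPM in vehicle), which covers counting error only. Values in full were given for the 15 top-ranked rises and up to 15 falls among called genes with a symbol, a group mean of 50 counts or more and every treated mouse on 1 side of the vehicle mean, for the AhR lists and for called members of other lists. The members, lists and tests were chosen with earlier results of these data known. The fitting procedure was also run on simulated counts with known changes, whose levels and spread were taken from these data. Alternatives were DESeq2 1.42.0, limma 3.58.1, other scalings, filters, columns and thresholds, each range of title numbers alone or as a covariate, and leaving out each library. Some genes are not reported here.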

Additional observations from a re-analysis of the deposited data

Results flagged for a closer look

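Among 71 of the called genes, 139 sets of 5 mice that were not all equal were examined for 1 mouse standing apart from the other 4 by Dixon's criterion, and 10 were found. Chance gives about 1 in 20. In vehicle replicate 2, 5 were found. Acta1 (146 CPM, next highest 0.0647) and Mylpf (22.2 CPM, next 1.15) are the muscle genes described above, and Pkm (25.3 CPM, next 13.1) is abundant in muscle too. That library was also high for 2010003K11Rik (7.53 CPM, next 5.09) and had no count of Ahrr (0 CPM, next 0.129). The part of muscle RNA in these values was not tested beyond the fits without that library.

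Elsewhere in vehicle, Psat1 was low in replicate 5 (0.430 CPM, next 0.796) and Fbxw9 high in replicate 3 (32.0 CPM, next 24.7). At 0.3 μg/kg, Uap1l1 was high in replicate 1 (14.2 CPM, next 8.98), Mroh2a high in replicate 3 (29.0 CPM, next 22.6) and Ugt2b35 low in replicate 2 (258 CPM, next 355).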

How the results depend on the processing

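The 72 calls became 88 with DESeq2 (71 of them shared), 72 with relative log expression factors (71), 72 with total-count scaling (67), 92 without a filter (69), 66 with a mean of 50 counts required (65), 62 with vehicle and 0.3 μg/kg fitted alone (51), 70 with title range as a covariate (68), 67 with a strand-specific column (56), 57 with limma (56) and 80 without a fold threshold. Fewer mice or a stricter test gave fewer calls: 20 in title range 1 alone (19 higher, 1 lower), 22 in title range 2 alone (22 higher, 0 lower by edgeR, with 696 genes at an unadjusted p under 0.05 in either direction) and 22 when the fold of 1.5 was itself tested (20 higher, 2 lower). The count of lower genes was 27 without a filter, 6 with the strand-specific column and 5 with limma. The cause was not tested. Leaving out 1 library gave 53 to 67 calls, 50 to 56 higher and 1 to 12 lower. Lower calls numbered 1 without vehicle replicate 2 and 6 without treated replicate 5. All 10 such fits kept 40 of the 72 genes, and 11 were called in every fit run: Ces2c, Cyfip2, Cyp1a1, Cyp1a2, Cyp1b1, Htatip2, Nptx1, Pcp4l1, Slc46a3, Tuba8 and Ugt1a9.

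The 7 calls of 0.3 against 0.1 μg/kg became 16 with DESeq2, 2 in title range 1 alone and 4 in title range 2 alone, and 6 to 8 with a library left out. The 37 calls of 1 against 0.3 μg/kg became 74 with DESeq2, 17 with the strand-specific column, 7 with the fold tested, 5 in title range 1 alone and 7 in title range 2 alone, and 12 to 42 with a library left out; without treated replicates 1, 2, 3 and 5 they were 21, 24, 12 and 18, and 24 without replicate 5 at 1 μg/kg.

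Of the called genes described here, the sign did not hold for Acta1, which was at 0 in title range 2 alone, where it has too few counts. Among uncalled genes of the AhR lists, Ptges3 was at -0.0152 with title range as a covariate and -0.0418 in title range 1 alone, Fmo2 at -0.184 in title range 1 alone, and in title range 2 alone Arnt was at -0.0389, Cyp2s1 at 0.126, Gsta2 at -0.222, Hsp90aa1 at 0.219 and Tiparp at 0.0351. With a library left out, Ptges3 lay between -0.0208 and 0.0428, Fmo2 between -0.0126 and 0.358, Ugt1a6a between -0.0644 and 0.249 and Tiparp between -0.243 and 0.0656.

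No paired analysis was possible because the labels carry no shared replicate numbers, so the numbers used here pair no mice. With 5 mice a group, changes near 1.5-fold and low counts are the least certain, and the vehicle floor of 0.191 CPM limits folds of genes silent in vehicle.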

Other observations

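Some genes that were not called were raised in single treated mice. Gadd45g, a growth arrest gene, was at 192 CPM in treated replicate 5 and at 59.5 CPM in vehicle replicate 5, and between 2.41 and 30.4 CPM in the other 8 mice. Egr1, an immediate early transcription factor, was highest in the same pair of mice, at 51.2 and 36.4 CPM, against 0.324 to 20.5 CPM elsewhere. Igfbp1, which binds insulin-like growth factors, was also highest in them, at 669 and 202 CPM. Asns, asparagine synthetase, was instead highest in treated replicate 1, at 31.6 CPM against 0.931 to 11.6 CPM in the other mice (1.97, adjusted p 0.212 by edgeR). Fgf21, a hepatic hormone, was at 4.67 and 5.04 CPM in treated replicates 1 and 3 and at 0.0716 to 1.09 CPM in the others. These genes were chosen after their values were seen.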
